A study of Mus musculus with 2 samples.

Results

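Very broad accessible regions are the stretches of open chromatin that ran for at least 2000 bp in both replicates of the embryonic heart. They were chosen by length alone, measured in the same 2 peak lists that are described here: each peak of replicate 1 was trimmed to the bases that a peak of replicate 2 also covered, touching pieces were joined, and autosomal regions of 2000 bp or more were kept. This left 2748 of 96639 shared autosomal regions, or 2.84% of them. They held 7142916 of 54785503 shared bases, or 13.0%. Length was therefore used for the choice and is given as a description, while height, position and base composition were not used.

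The data came from wild-type (WT) embryos of the FVB strain at E11.5 with 49 to 51 somites. Each of the 2 replicates was a pair of whole hearts pooled before the assay, so muscle, endocardium, epicardium, cushion mesenchyme and the blood inside the chambers entered together. A region open in more cells and a region more open in each cell cannot be told apart in such tissue. With 1 group there was no condition to compare, so no test was run and the replicates give only the spread between pools.

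In ATAC-seq, the transposase Tn5 cuts DNA where nucleosomes are displaced, and the ends of the fragments pile up over promoters, enhancers and other occupied sites. An ordinary accessible site is about as wide as a gap between nucleosomes. Wider stretches arise at promoters with a CpG island, where unmethylated CG-rich DNA keeps nucleosomes away, and at clusters of enhancers, where many sites lie side by side around genes that define a cell type. Peak callers also join neighbouring sites into 1 interval when the signal between them stays above the threshold.

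The replicate lists held 118027 and 114783 peaks. Height was read as fold enrichment at the summit of a peak, meaning pileup over the genome-wide background of the library, and the steps between the values put that background at 2.68 reads in replicate 1 and 2.98 in replicate 2. All 8 heart muscle markers, all 5 endothelial and all 4 epicardial ones had a shared region within 1 kb of a start. So did 3 of 4 blood, 3 of 4 neural and 1 of 3 skeletal muscle markers, while neither liver marker did. On a narrower measure, 63.4% of all autosomal protein-coding genes had a shared region that held a start. Among these markers, Wt1 and Tbx18, both transcription factors of the epicardium, had a start inside a very broad region, as did 12.8% of all autosomal protein-coding genes. A very broad region in the heart muscle marker Actc1 came within 530 bp of its start without holding it.

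The windows that reach 100 bases to each side of the summit in replicate 1 are shown first for the 3 longest regions, the highest, the lowest and the longest that holds no annotated start of any gene, since these span the range of length, height and composition. Sequences are from the plus strand of GRCm38, and capitals mark any match to the searched motifs: the GC box GGGCGG, the CCAAT box CCAAT, the ETS site CCGGAAGT, the NRF1 core GCATGCGC, the E-box CACGTG, the TATA box TATAAA, the GATA site AGATAA, the TEAD site CATTCC, the T-box site AGGTGTGA, the MEF2 site TAAAAATA, the AP-1 site TGACTCA and their reverse complements, plus the CArG box of serum response factor, which was added after the sequences had been read.
Rbm38, longest (chr2:173038226-173038426): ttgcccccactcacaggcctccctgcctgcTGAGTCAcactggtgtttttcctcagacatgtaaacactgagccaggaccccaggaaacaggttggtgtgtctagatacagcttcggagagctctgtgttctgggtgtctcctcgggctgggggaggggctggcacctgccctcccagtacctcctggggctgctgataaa
Pcdh7, next in length (chr5:57715108-57715308): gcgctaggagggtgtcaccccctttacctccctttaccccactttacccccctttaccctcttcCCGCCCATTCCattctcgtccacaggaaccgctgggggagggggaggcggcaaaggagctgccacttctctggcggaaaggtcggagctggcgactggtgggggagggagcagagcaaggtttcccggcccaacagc
Irs2, next after Pcdh7 (chr8:11008914-11009114): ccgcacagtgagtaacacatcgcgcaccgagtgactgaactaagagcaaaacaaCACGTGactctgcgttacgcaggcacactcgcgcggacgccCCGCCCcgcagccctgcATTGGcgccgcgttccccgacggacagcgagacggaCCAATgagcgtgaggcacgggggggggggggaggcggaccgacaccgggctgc
Ripk2, highest (chr4:16163775-16163975): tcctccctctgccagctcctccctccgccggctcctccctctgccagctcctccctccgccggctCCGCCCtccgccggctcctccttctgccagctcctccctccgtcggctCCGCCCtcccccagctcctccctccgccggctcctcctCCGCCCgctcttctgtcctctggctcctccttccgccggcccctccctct
Ackr3, lowest (chr1:90211787-90211987): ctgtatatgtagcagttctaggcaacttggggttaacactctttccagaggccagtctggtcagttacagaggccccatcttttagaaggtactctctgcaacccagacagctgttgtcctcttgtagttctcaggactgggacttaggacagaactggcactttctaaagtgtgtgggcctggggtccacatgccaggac
Actc1, longest without a start (chr2:114052894-114053094): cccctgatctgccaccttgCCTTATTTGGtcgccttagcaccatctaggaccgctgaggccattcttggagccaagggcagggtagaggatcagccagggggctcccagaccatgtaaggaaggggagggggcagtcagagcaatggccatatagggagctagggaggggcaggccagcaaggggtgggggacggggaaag

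The Irs2 window was the richest of these in CG dinucleotides, with 25, and held a GC box, an E-box and 2 CCAAT boxes. The Ripk2 window had a GC content of 74.6% and 3 GC boxes. The Ackr3 window had no CG and no match to any motif searched. It ran past the end of its shared region, at chr1:90211896, and the summit of replicate 2 lay elsewhere in that region, at chr1:90210975. The Rbm38 window had 2 CGs and 1 AP-1 match. The Actc1 summit of replicate 1 lay outside the shared bases, just upstream of the annotated start of the gene, and its window held 1 CArG box.

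Height rose with length and levelled off gradually, with medians that changed little past about 2000 bp. The median height was 5.43 in replicate 1 and 4.78 in replicate 2 for the 62834 regions under 500 bp, and 10.1 and 9.05 for those of 500 to 999 bp. It was 19.8 and 19.6 for 1000 to 1499 bp, and 27.2 and 27.7 for 1500 to 1999 bp. Past the length limit the medians climbed little further. The 1647 regions of 2000 to 2499 bp had medians of 30.4 and 31.2, the 616 of 2500 to 2999 bp 30.7 and 31.4, the 359 of 3000 to 3999 bp 30.7 and 30.4, and the 126 of 4000 bp or more 32.2 and 32.4. Over all shared regions, Spearman's rho of length and mean height was 0.811, and below the limit it was 0.796. Within the length classes the rho was 0.609 under 500 bp, then 0.336, 0.273 and 0.115 up to the limit. It was 0.083 for 2000 to 2499 bp, -0.0077 for 2500 to 2999 bp, 0.026 for 3000 to 3999 bp and -0.031 for 4000 bp or more. Within all very broad regions it was 0.052 (0.176 with a limit of 1500 bp and 0.091 with one of 3000 bp), and 0.051 and 0.052 with the heights of replicate 1 and replicate 2 alone. All points come from the same 2 libraries, and a taller peak crosses the calling threshold over more bases, so length and height share the same reads.

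**Figure D1:**
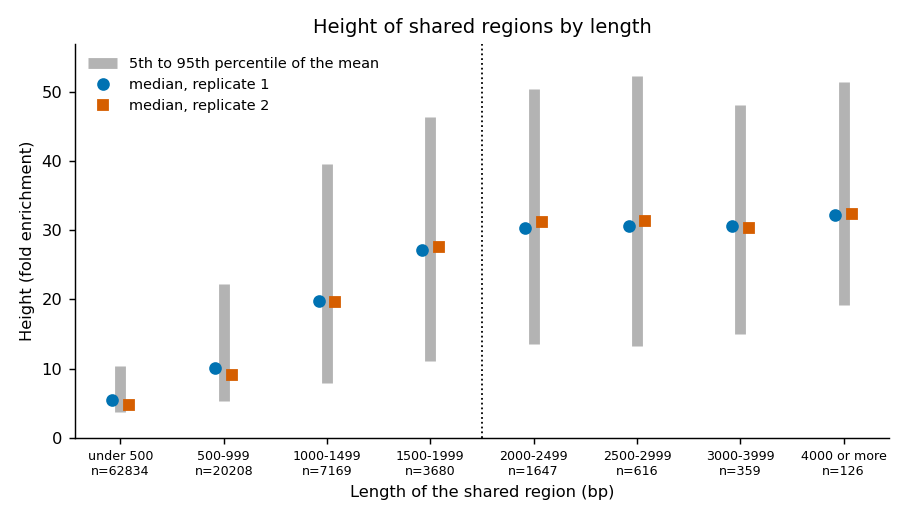
Median height (fold enrichment) in replicate 1 (circles) and replicate 2 (squares) against the length class of the shared autosomal region in bp, with grey bars from the 5th to the 95th percentile of the mean height and the dotted line at the limit of 2000 bp. Medians rise from about 5 to 27 below the limit and stay between 30.4 and 32.4 above it.

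The very broad regions were tall as a group but spread widely. Their median mean height was 31, against 6.28 for all shared regions and 21.7 for the 10547 shorter regions that held a protein-coding start. The middle of the distribution ran from 22.9 to 39.1 between the 25th and 75th percentiles, and the extremes were 6.40 and 71.6. Of the 1000 tallest shared regions, 453 were very broad and 547 were shorter than 2000 bp, which is 16.5% of the very broad regions and 0.583% of the shorter ones. Of the 10 tallest, 8 were very broad, and 3.04% of the shorter regions reached the median height of the very broad. At the other end, 31 very broad regions had a mean height of 10 or less.

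**Figure D2:**
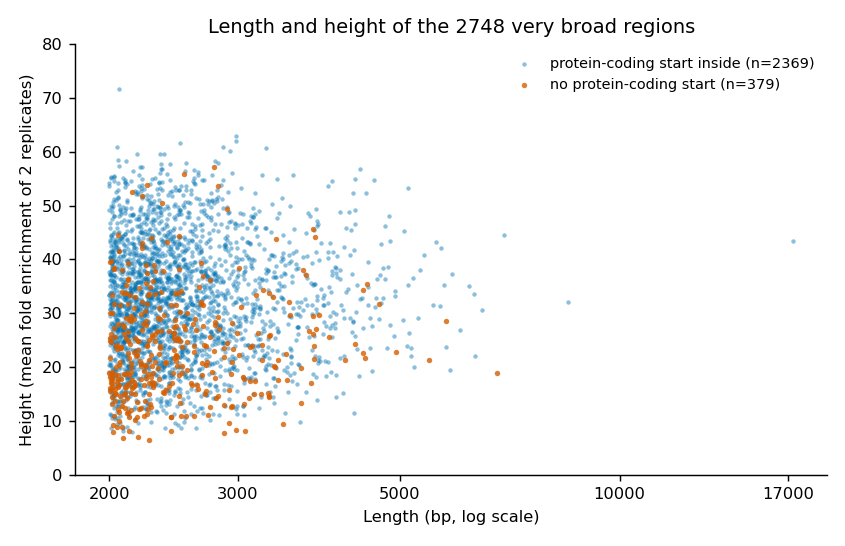
Length in bp (log scale) against mean height of the 2 replicates (fold enrichment) for each of the 2748 very broad regions, with the 2369 that hold a protein-coding start in blue and the 379 that do not in orange. The cloud has no slope, and the orange points are concentrated in its lower part.

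Lengths were strongly skewed towards the limit. The median was 2382 bp, 1647 regions (59.9%) were under 2500 bp, 485 reached 3000 bp, 126 reached 4000 bp, 32 reached 5000 bp and 9 reached 6000 bp. Just inside the limit lay the regions at the start of Tspan12, with heights of 20.1 and 18.1, and inside Chd7, with 20.6 and 17.1, each of 2001 bp. Just outside lay the region nearest Zmiz1 with 1999 bp and heights of 16.8 and 22.9, and those at Tada1 and at Gart and Son with 1998 bp each. The regions on either side of the limit overlapped in height.

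The longest region of all covered 17297 bp at Rbm38 (chr2:173021566-173038862), which encodes an RNA-binding protein that controls splicing during red cell maturation. Its height was 43.2 in replicate 1 and 43.7 in replicate 2. The summit lay 16424 bp downstream of the nearest annotated Rbm38 start inside the region, so the tallest point was not at a promoter of the gene. The region also held annotated starts of Gm14453 and Gm20490, which were not among the protein-coding starts used for this distance. In replicate 2 the same peak, of 20731 bp, also ran on across the upstream start into a further very broad region of 2721 bp (chr2:173018426-173021146), which replicate 1 called as a separate peak with a height of 28.8. The CpG ratio of the long region (CG dinucleotides observed over expected from its C and G content) was 0.23, against a median of 0.68 for all very broad regions.

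The next 2 in length were at developmental or signalling genes. Pcdh7 (chr5:57713937-57722439), a protocadherin of cell adhesion, had 8503 bp and heights of 33.1 and 30.9. Irs2 (chr8:11003231-11010182), which carries insulin receptor signals into the cell, had 6952 bp and heights of 46.7 and 42.5. Both are CpG-rich, with ratios of 0.70 and 0.67.

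The fourth was the body of Actc1 (chr2:114045572-114052357), the cardiac alpha-actin of the sarcomere. It covered 6786 bp and held no annotated start, since its edge lay 530 bp short of the Actc1 start. The heights were 25.8 and 12.1. The replicate 1 peak, of 8105 bp, ran on over the promoter and had its summit there, whereas the replicate 2 peak of 6786 bp stopped before it, so the 2 heights were read at different places. The promoter formed a shared region of its own of 1018 bp, with heights of 25.8 and 22.1.

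Of the other 11 among the 15 longest, 10 held a protein-coding start. Midn (6479 bp, heights 32.1 and 29.2) encodes midnolin, which takes proteins to the proteasome. Dmtn (6341 bp, 20.9 and 23.4) encodes dematin, an actin-bundling protein of the red cell membrane skeleton, and had a CpG ratio of 0.27. Ypel4 (6044 bp, 25.5 and 28.4), from a family of small zinc-binding proteins, lay inside its region from end to end, with a ratio of 0.24.

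Pcdh17 (6315 bp, heights 37.2 and 29.9) is a second protocadherin, and Marcks (5896 bp, 38.3 and 36.5) links protein kinase C to the actin cortex. The region at Brd2, a bromodomain reader of acetylated histones, also held the start of H2-DMa (6211 bp, 33.1 and 37.0). Ccn1 (5865 bp, 20.9 and 18.1) encodes a matrix protein induced by YAP and serum, and Bbc3 (5785 bp, 24.2 and 23.4) encodes PUMA, which promotes apoptosis. Irf2bp2 (5756 bp, 34.8 and 35.7) and Cic (5687 bp, 45.1 and 39.2) encode transcriptional repressors. The region without a protein-coding start in this set lay at the noncoding genes AI480526, 4932422M17Rik and Gm38102, 1729 bp from the start of Rhof, with 5785 bp and heights of 27.4 and 29.7. Apart from Actc1, the largest log2 ratio between the replicates among the 15 was 0.31, at Pcdh17.

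**Figure D3:**
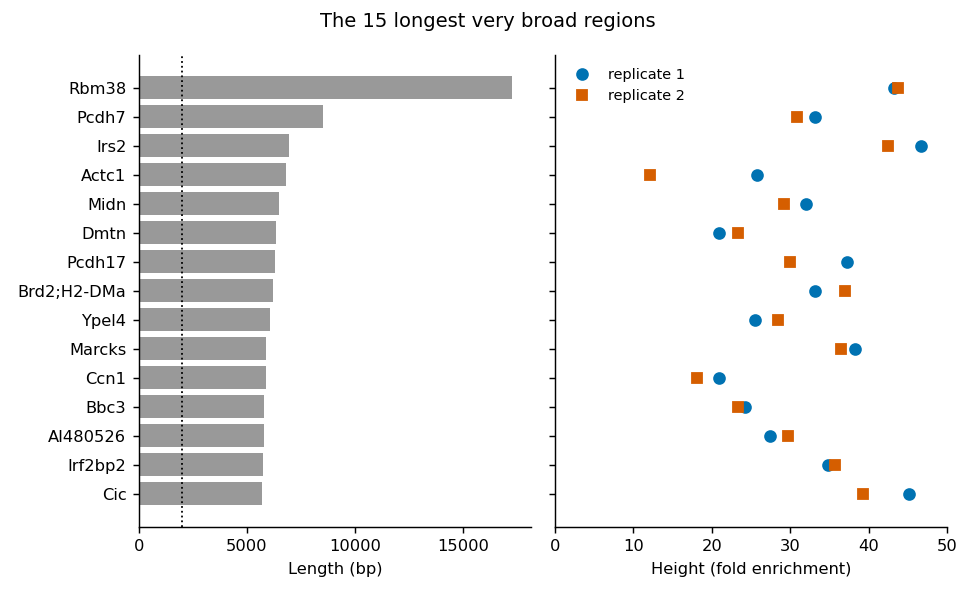
Length in bp (bars, dotted line at 2000 bp) and height as fold enrichment in replicate 1 (circles) and replicate 2 (squares) for the 15 longest very broad regions, named by the gene at their start or, for Actc1, by the gene they lie in. Rbm38 reaches 17297 bp, the others lie between 5687 and 8503 bp, and only Actc1 shows heights far apart (25.8 and 12.1).

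A start of a protein-coding gene lay inside 2369 very broad regions (86.2%), against 13.4% of all shared regions and 63.5% of those of 1000 to 1999 bp. Seen from the other side, 18.3% of the 12916 shared regions with a protein-coding start were very broad, against 0.368% of the 82140 with no start of any gene. A longer region has more bases in which a start can lie, so the share was also read in a window of fixed size. A protein-coding start lay within 100 bp of the summit of replicate 1 in 42.2% of the very broad regions, 42.1% of those of 1000 to 1999 bp and 9% of all shared regions. On this measure of equal length the very broad regions and the class below them were nearly the same. Among regions that held a start, the summit was within 100 bp of it in 49.0% of the very broad and 66.9% of the shorter ones.

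The remainder fell into 4 kinds of place. Another 77 regions (2.8%) held only the start of a noncoding or other gene, 66 (2.4%) covered coding exon without a start, 110 (4.0%) lay in a gene body without either, and 126 (4.59%) lay outside protein-coding genes. All shared regions were placed differently, with 41.2% in gene bodies and 38.8% outside genes. A lncRNA start lay in 465 very broad regions (16.9%), against 2.50% of all shared regions.

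Around single promoters the open stretch extended further into the gene than away from it. For the 2060 very broad regions with the start of 1 protein-coding gene, the median extent was 974.5 bp upstream and 1466 bp downstream of the start nearest the summit, and 73.8% were longer downstream. The 9764 shorter regions with 1 gene were also longer downstream in 72.1% of cases, with medians of 421 and 683 bp. The summit of replicate 1 itself sat a median of 56 bp upstream of the start, and within 250 bp of it in 77.1% of the very broad and 90.7% of the shorter regions.

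More than 1 gene shared a region in 309 cases (11.2%), against 1.13% of all shared regions and 7.42% of shorter regions with a start. Over the very broad regions with a start the share was 13.0%, and a longer region has more room for a further start. In 290 of the very broad regions (10.6%) the starts lay on both strands, against 1.05% of all shared regions. The share was 12.2% over the very broad regions with a start and 6.88% over shorter regions with a start. The starts of 3 or more protein-coding genes lay together in 9 very broad regions, a count not made for other regions. The longest of these, at Hcfc1r1, Thoc6 and Tnfrsf12a (chr17:23673090-23677744), had 4655 bp and heights of 36.7 and 35.9. At Prdx2, a peroxidase abundant in red cells, Rnaseh2a and the model Gm49661 (chr8:84968562-84971606), the region had 3045 bp and heights of 25.8 and 24.9. At Ndufa13, a subunit of respiratory complex I, Tssk6 and Yjefn3 it had 2594 bp and heights of 26.9 and 26.1. The extra gene at several of these was a predicted model or read-through annotation.

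A whole protein-coding gene lay inside 37 very broad regions. Shorter regions were not counted in this way, and a longer region has more room for a whole gene. In some of the 37 only a predicted model lay inside whole, as with Gm10518 and Gm9887. After Ypel4 the longest was at Inka1 (5676 bp, heights 31.8 and 30.9), followed by Lyl1 (4920 bp, 34.2 and 34.2), a helix-loop-helix factor of blood and endothelium, and Ier2 (4855 bp, 27.7 and 27.9), an immediate early gene. The embryonic globin genes Hba-x and Hbb-y were covered from end to end. The Hba-x region (chr11:32276063-32279414) had 3352 bp and heights of 20.9 and 35.2, and the Hbb-y region (chr7:103850864-103853848) had 2985 bp and heights of 29.9 and 34.4. Gadd45g, Jund, Gpx1, Mif and Mt2, all compact genes, were among the others. These names, other than Ypel4, Lyl1, Ier2 and Hbb-y, were picked after their values were seen.

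The very broad regions were GC-rich and rich in CpG. Their median GC content was 58%, against 50.0% for all shared regions and 58.3% for shorter regions with a start. The median CpG ratio was 0.68, 0.24 and 0.67 in the same order. Using a GC content above 50% with a CpG ratio above 0.6 as the mark of a CpG island, 1784 very broad regions (64.9%) were island-like, against 11.3% and 63.3%. In the window around the summit the median GC content was 68.2%, against 66.2% in shorter regions with a start. Set like for like, the 2369 very broad regions with a protein-coding start had a median GC content of 58.7%, a CpG ratio of 0.70, an island-like share of 72.6% and a summit window of 69.2% GC, each above the value of the shorter regions with a start.

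Most of the island-like regions, 96.4%, held a protein-coding start. The 964 others were of 2 sorts, with 649 at protein-coding starts and the rest elsewhere. Median heights were 33.1 and 33.2 in the island-like and 26.3 and 26.8 in the others. Height had a rho of 0.27 with the CpG ratio over the very broad regions and of -0.025 with GC content, and length had a rho of -0.072 with the CpG ratio. Among the 687 tallest very broad regions 96.8% held a protein-coding start, and among the 687 lowest 71.3%.

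Motifs followed the kind of region. The GC box lay in the summit window of 67% of the very broad regions, 57.5% of shorter regions with a start and 15.4% of all shared regions. The CCAAT box lay in 31.1%, 26.3% and 21.2%. The ETS site lay in 2.73%, 5.24% and 0.96%, the NRF1 core in 2.37%, 3.39% and 0.827%, the E-box in 6.66%, 6.86% and 4.03% and the TATA box in 3.2%, 2.72% and 6.93%, in the same order. The GATA site was rarer at promoters, with 5.13%, 2.89% and 17.2% in the same order, and it was found in 76 (25.2%) of the 302 very broad regions that held no start. In that set the GC box was in 28.5%. The TEAD site was in 9.27% of that set against 14.7% of all shared regions, the AP-1 site in 5.63% against 6.43%, and the MEF2 site in 1.66% against 2.81%. The CArG box was in 1.16% of the very broad and 1.22% of all shared windows. These are counts of letters in windows of equal size, and GC content differs between the sets.

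The tallest region was at Ripk2 (chr4:16162706-16164770), a kinase of NOD receptor signalling, with 2065 bp and heights of 74.2 and 69.1. It was close to the shortest length allowed. Next among the very broad regions came the shared promoter of Chchd7 and Plag1 (2985 bp, heights 64.1 and 61.6), with a mean height of 62.8. Shorter regions with a start reached a mean height of 66.0. Sp4 (2979 bp, 64.1 and 59.8), a factor that binds the GC box, followed, then the shared promoter of Chml and Opn3 (2502 bp, 63.6 and 59.6). Osbp, an oxysterol carrier, had 63.0 and 58.8, and Ppp2r1a, the scaffold subunit of phosphatase 2A, had 63.6 and 58.1. Nmt2, Khsrp, Garem1 and Ifrd1 completed the 10 tallest very broad regions, all of them at a protein-coding start and between 2048 and 3278 bp long.

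The lowest regions had another make-up, since 2 of 10 held a protein-coding start. The lowest 2, and the fourth from the bottom, lay one after another in Ackr3, a scavenging receptor for the chemokine CXCL12. They covered chr1:90209632-90211896 with heights of 6.52 and 6.28, chr1:90212898-90214982 with 6.25 and 7.29, and chr1:90206489-90209362 with 7.33 and 8.30. The region at the Ackr3 start itself (3989 bp) was far taller, at 31.2 and 32.7.

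The other lowest regions lay at a range of genes. One in the body of Lmod2, which nucleates actin in the sarcomere, had heights of 8.96 and 7.29, and its edge was 1290 bp from the start. One at the noncoding gene Gm13054 in Clcn6 (heights 8.42 and 7.29) lay 2286 bp from the start of Nppa, the atrial natriuretic peptide gene. Regions in Ctdsp2 (8.69 and 7.54), in Nudt4 over Mir3058 (7.88 and 6.03) and in Zmiz1 over Mir3075 (6.79 and 9.55) held no protein-coding start either. Rims2 and Pcdh1 were the 2 with one, and both were CpG-rich, with ratios of 0.88 and 0.70.

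The 302 very broad regions with no annotated start of any gene were lower and poorer in CpG than those at protein-coding starts. Their median heights were 21.1 and 21.7 in the 2 replicates, against 32.1 and 32.4. Their median GC content was 51.6% against 58.7%, and the median CpG ratio 0.28 against 0.70. The nearest protein-coding start was a median of 12736 bp from the edge, within 5 kb for 88 regions and over 50 kb away for 70.

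After Actc1, the longest of these lay beside Hand2 (chr8:57324713-57329648), a helix-loop-helix factor needed for the right ventricle. It had 4936 bp, heights of 22.3 and 23.4, and began 3730 bp from the Hand2 start, immediately beyond the 5184 bp region at that start (chr8:57319158-57324341, heights 25.0 and 22.1). In Zfpm1, which encodes the GATA cofactor FOG1, a 4480 bp region (chr8:122321059-122325538) had heights of 20.9 and 22.4. In Rab3il1 a 4205 bp region had 18.2 and 24.4, and in Tmem14c, a mitochondrial carrier of haem synthesis, a 3834 bp region had 19.6 and 34.4, the latter read at a summit outside the shared bases.

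Others lay further from a gene. The region nearest Dhx15 (chr5:52112377-52116823) was 73666 bp from that start and had 4447 bp, heights of 23.6 and 21.6 and a CpG ratio of 0.75. A region of 4341 bp (chr8:120292068-120296408) within the read-through model Gm20388 had heights of 23.4 and 25.4 and lay 114602 bp from the start of Fam92b. One 42500 bp from the Ackr3 start (chr1:90246480-90250356) had 3877 bp and heights of 31.5 and 27.7, both above the medians for regions without a start. The region nearest Olfr1423 (3995 bp) had 26.1 and 25.1. Close to its gene, in Kdm6b, which encodes a histone H3K27 demethylase, a region of 3819 bp had 23.1 and 24.9.

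Some genes carried several very broad regions. In all, 244 protein-coding genes had 2 or more in the gene body or within 10 kb of a start, and 38 had 3 or more, although overlapping gene models count the same regions again. Of the 38, 21 were genes of the protocadherin gamma cluster on chromosome 18, counted over the same 4 regions, and 3 more were predicted models that overlap that cluster. Gm20388, a read-through model that spans many genes, had 19. Ackr3 had 5 between chr1:90201946 and 90217821, with a summed length of 13263 bp. The 4 low ones among them, with heights from 6.25 to 8.96 in replicate 1, followed the tall one at the start, one after another along the gene.

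Slc4a1, band 3, which exchanges chloride and bicarbonate across the red cell membrane, had 4 regions that summed to 13897 bp (chr11:102347609-102377047). The one at its start had 5058 bp and heights of 30.7 and 26.9, and the last lay at the noncoding RNA gene Bloodlinc with 25.8 and 22.9. Zfpm1 had 4 that summed to 13990 bp, the one at its start with 5062 bp and heights of 45.9 and 44.5. Around Nfix, a nuclear factor I gene, 4 regions summed to 13457 bp and included those at Lyl1 and at G430095P16Rik (4192 bp, 22.0 and 22.1). Zeb2, a repressor that acts in neural crest and blood development, had 4 of 2066 to 2941 bp, with heights from 13.9 to 22.6. Neighbouring very broad regions were under 1 kb apart in 29 cases and under 5 kb apart in 79, and the median gap was 401 kb.

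Of 20696 autosomal protein-coding genes, 2656 (12.8%) had a very broad region at a start, and 13120 (63.4%) had a shared region of any length there. Gene lists were read against that 12.8% as counts, with no test. Among genes with any start region the share was 20.2%, and on that base the endothelial list stood level with all genes (20.8%) and the ribosomal protein list below them (14.5%). Among cardiac transcription factors 19 of 44 (43.2%) had one. Hand2 was the longest, then Zfpm1, Foxp1 (3512 bp, heights 16.0 and 14.8), Meis1 (3296 bp, 27.4 and 22.9), Mef2a (3255 bp, 26.6 and 26.6) and Mef2c (3237 bp, 23.1 and 23.1), the last 2 encoding MADS-box factors of muscle genes. The starts of Nkx2-5 (584 bp, 12 and 9.30), Tbx5 (450 bp, 5.43 and 4.78) and Gata4 (1567 bp, 16.0 and 16.3) had shorter regions.

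For the proteins of the sarcomere and of calcium handling, 27 of 28 genes had a shared region at a start and 2 (7.14%) had a very broad one, Tnni1 (2118 bp, heights 29.1 and 23.6), the slow skeletal troponin I of the embryonic heart, and Ryr2 (2083 bp, 23.9 and 19.1), the calcium release channel. The longest start region of each of the 27 had a median length of 1088 bp, against 1408 bp for all genes with a start region and 1848 bp for the cardiac transcription factors. Very broad regions also lay in the body of Actc1, as described above, and at the start of Nexn (2088 bp), a sarcomere gene outside the list.

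Signalling genes had very broad start regions in 23 of 42 cases (54.8%), led by Spry2 (4743 bp, heights 40.7 and 35.9), an inhibitor of receptor kinase signals, the Notch ligand Jag1 (4584 bp, 27.7 and 27.4), the Hedgehog receptor Ptch1 (4440 bp, 32.3 and 33.4) and the ERK phosphatase Dusp6 (3824 bp, 35.9 and 34.9). Immediate early genes, which respond to a stimulus without new protein synthesis, had the highest share of the lists, 14 of 20 (70.0%). Ier2, Myc (4356 bp, 29.3 and 31.2), Jun (4348 bp, 47.0 and 46.0) and Fos (3617 bp, 26.6 and 28.4) were the longest. Cell cycle genes had 11 of 20 (55%), led by Mycn (5225 bp, 19.6 and 20.6), and chromatin regulators 15 of 25 (60%), led by Arid1b (3962 bp, 24.2 and 31.2) and Arid1a (3792 bp, 30.7 and 29.2), subunits of the BAF remodelling complex.

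**Figure D4:**
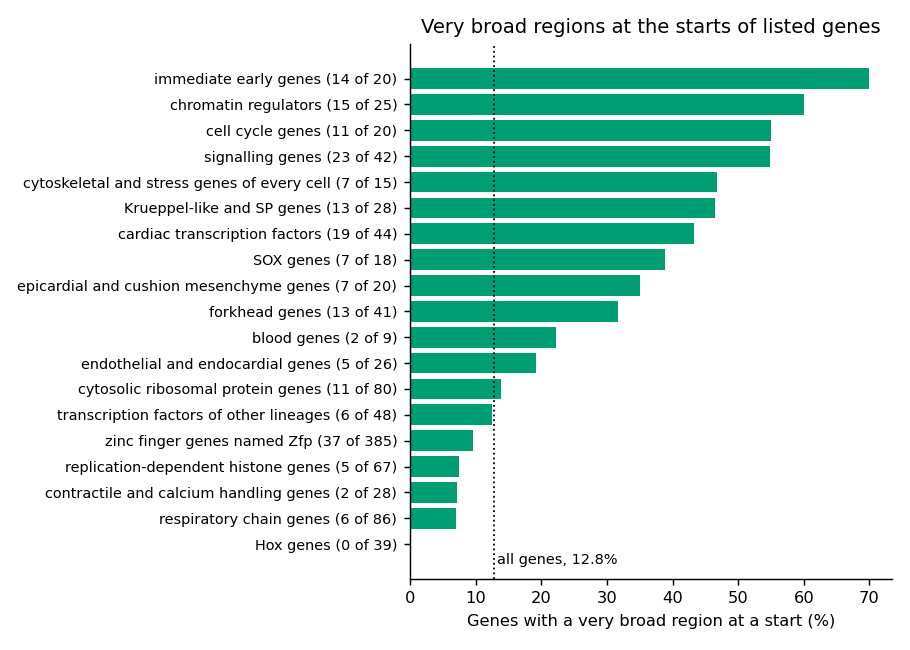
Percent of the autosomal genes of each list that have a very broad region at a protein-coding start, with the count in brackets and a dotted line at 12.8%, the share of all 20696 autosomal protein-coding genes. Immediate early genes stand at 70.0%, contractile genes at 7.14% and Hox genes at 0.

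Epicardial and cushion genes had 7 of 20 (35.0%), led by Vcan (4318 bp, heights 28.0 and 28.7), the cushion proteoglycan versican. Endothelial and endocardial genes had 5 of 26 (19.2%), led by Tal1 (5120 bp, 23.4 and 24.4), a factor of blood and endothelium, and Lyl1. Of 9 autosomal blood genes 2 (22.2%) had one, Hbb-y and Runx1 (2671 bp, 26.6 and 24.6). Transcription factors of other lineages had 6 of 48 (12.5%), close to all genes, with Pou3f2 (3990 bp, 22.3 and 19.6) and Nkx6-1 (2716 bp, 23.6 and 21.4) the longest.

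Gene families also spread on both sides of the share for all genes. Krueppel-like and SP genes had 13 of 28 (46.4%), led by Klf13 (4310 bp, heights 52.4 and 52.3), SOX genes 7 of 18 (38.9%), led by Sox6 (4333 bp, 12 and 11.1), and forkhead genes 13 of 41 (31.7%), led by Foxo3 (5329 bp, 41.0 and 35.2). Cytoskeletal and stress genes of every cell had 7 of 15 (46.7%), with Gapdh (3919 bp, 33.1 and 29.9) and Actb (3344 bp, 39.4 and 42.2). Cytosolic ribosomal protein genes had 11 of 80 (13.8%), led by Rpl7 (3368 bp, 36.1 and 37.2), and zinc finger genes named Zfp 37 of 385 (9.61%), led by Zfp703 (4414 bp, 31.5 and 33.9). Replication-dependent histone genes had 5 of 67 (7.46%) and respiratory chain genes 6 of 86 (6.98%). Among genes with any start region these shares were 12.8% and 7.41%, against 20.2% for all such genes. Hist1h2bb and Hist1h3c shared a region, as did Hist1h3a and Hist1h4a. Of 39 Hox genes none had one, and 7 had a shared region of any length at a start.

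Agreement of height between replicates was favoured by the choice itself, which asked for great length in both, so it is given as a description. The heights had a Spearman's rho of 0.962 over the very broad regions and 0.770 over all shared regions. The log2 ratio of replicate 1 to replicate 2 had a median of 0.02 and an SD of 0.17 over the very broad regions, against 0.11 and 0.53 over all shared ones, most of which were far lower. For the 3680 regions of 1500 to 1999 bp, which were nearer in height, the rho was 0.957 and the SD of the log2 ratio 0.22. The lengths of the whole peaks had a rho of 0.736. Each region came from 1 peak in each replicate, and 82.5% of the summit pairs were within 100 bp of each other, while 80 pairs (2.91%) were over 1000 bp apart.

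The height was more than 1.5-fold apart in 22 regions, 9 higher in replicate 1 and 13 higher in replicate 2. In 17 of the 22, the higher value was read at a summit outside the shared bases, in a longer peak of 1 replicate that took in a neighbouring site, as at Actc1. This held for the 5 largest ratios. In Slc4a1 (chr11:102355533-102358934) the heights were 8.15 and 26.9, from peaks of 3402 and 10809 bp. In Pea15a they were 25.5 and 10.3, in Smarca2 13.3 and 29.9, at Mir1894 in Ppp1r10 17.1 and 37.2, and at Nr3c2, the mineralocorticoid receptor gene, 50.5 and 23.4.

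In the other 5, named here after their values were seen, both summits lay inside the shared region. Hba-x, the embryonic alpha-like globin, was higher in replicate 2 (20.9 and 35.2), as was a region in Chid1 (7.06 and 12.3). Nexn, which encodes the sarcomere protein nexilin, was higher in replicate 1 (27.2 and 17.1), as were the region nearest Meis1 (19.6 and 12.3) and that nearest Cyp7b1 (22.5 and 14.8). Beside these, 7 of 8 heart muscle markers were higher at their start in replicate 1, with summed heights of 129.8 and 108.1, Tnnt2 (25.0 and 20.9), Myl7 (16.6 and 11.8) and Ttn (15.2 and 10.1) among them. Of the 3 blood markers with a region, Gata1 (12.2 and 15.1) and Klf1 (21.7 and 26.6) were higher in replicate 2 and Hba-a1 (17.4 and 13.6) in replicate 1, with summed heights of 51.3 and 55.3, and Ptprc had no region. All 5 endothelial markers were higher in replicate 1 as well (summed heights 62.7 and 52.5), and over all shared regions the median log2 ratio also leaned to replicate 1, as given above. The part of cell make-up in these heights was not tested.

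**Figure D5:**
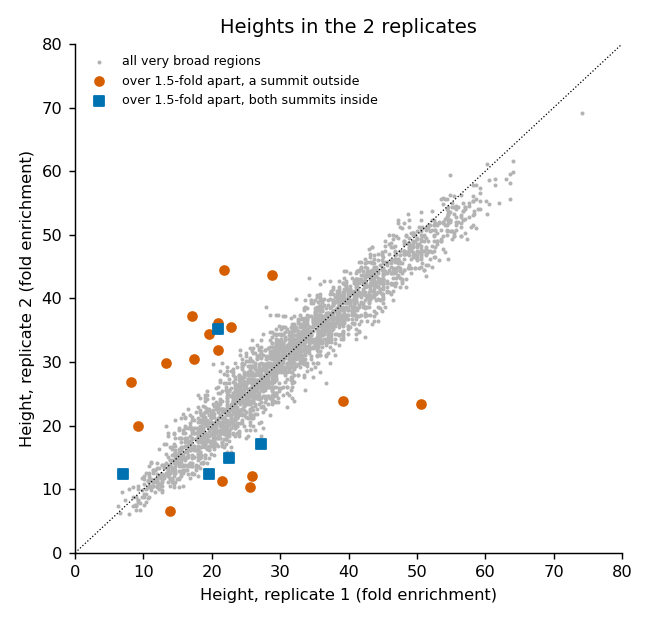
Height (fold enrichment) in replicate 1 against replicate 2 for the 2748 very broad regions, with the 22 that are over 1.5-fold apart marked by whether a summit lies outside the shared bases (17, circles) or both lie inside (5, squares). The dotted line marks equal heights, and the grey cloud follows it.

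Length depended on both replicates. Replicate 1 had 3374 autosomal peaks of 2000 bp or more and replicate 2 had 3932, of which 2746 and 2741 overlapped a very broad region. Only 1 of these peaks in each replicate had no peak at all in the other. The remainder either met shorter peaks or met a long peak at an offset, as at Gart and Son, where peaks of 2073 and 2024 bp shared 1998 bp. The very broad regions filled a median of 99.1% of the replicate 1 peak and 96.5% of the replicate 2 peak, with lows of 32.9% and 13.1%. In replicate 2, 7 peaks held 2 very broad regions, and in replicate 1, 2 did.

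Sequence uniqueness was high. The median share of 32-mers found once in the genome was 99.96%, and 42 regions fell below 90%, the lowest at 51.4%. Reads of FVB embryos were placed on a genome built from another strain. Per chromosome, the very broad regions ran from 0.753 per Mb on chromosome 14 to 1.49 on chromosomes 7 and 11.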

How the data were processed

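ATAC-seq libraries of 2 pools of wild-type E11.5 hearts were analysed from peak lists deposited by the authors, who trimmed reads with Trim Galore 0.6.6, mapped them to GRCm38 with Bowtie2 2.4.2, handled alignments with SAMtools 1.12 and called peaks per replicate with MACS2 without a local background. The extension size given for peak calling is smaller than the shortest deposited peak (200 bp), so the settings that shaped peak length, on which the choice of regions rests, are not settled here. The deposited lists give a fold enrichment (ratio of pileup to background) at each summit, a p-value and a q-value as −log10, and a score derived from the q-value. Read totals are not in the lists, so no counting interval is given.

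Lists were intersected (minimum overlap 1 bp) and merged with bedtools 2.31.1. The height of a region was the mean over replicates of the highest overlapping peak. Starts came from the GENCODE M21 basic annotation and sequence from the RefSeq copy of GRCm38. A region took the gene whose start it held, otherwise the gene it overlapped. Named regions were the 15 longest, the 10 highest and 10 lowest, 3 on each side of the limit (1 of them is not reported here), the 10 longest without a start, up to 6 per gene list, the 5 largest replicate ratios, those with 3 or more genes, and the 6 genes with most regions. The members and lists were chosen with earlier results of these data known. The overlap code was tested on simulated peaks. Alternatives were stricter p- and q-values, 50% reciprocal overlap, merging over 100 bp, other length limits, other start definitions, the lower replicate height, chromosome X and each replicate alone.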

Additional observations from a re-analysis of the deposited data

Results flagged for a closer look

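Chromosome X was left out of the choice and held 72 shared regions of 2000 bp or more, 3.26% of its 2211 shared regions. Of these, 65 held a protein-coding start, and their median mean height was 28.6. One unplaced scaffold, also left out, held 5 shared regions of 2000 bp or more, of which the tallest, of 2974 bp, had heights of 80.7 and 80.9, above the 74.2 and 69.1 of the tallest autosomal region. Both are counts in data that the report did not use. Sequence uniqueness was measured for autosomal regions only, so how uniquely reads map to the scaffold or to chromosome X was not checked.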

How the results depend on the processing

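The number of very broad regions was 6428 with a limit of 1500 bp and 485 with a limit of 3000 bp, and ran from 3374 to 3932 with 1 replicate alone. The share with a protein-coding start was 81.0% with a limit of 1500 bp and 89.0% when genes of every type counted, and 81.3% to 83.6% with 1 replicate alone. The rank correlation of height and length over all shared regions was 0.751 with q-values of 1e-10 or less, 0.806 with p-values of 0.00001 or less, 0.861 with reciprocal overlap, 0.833 with gaps merged, 0.855 with the lower replicate height and 0.826 to 0.827 with 1 replicate alone. Within the very broad regions it was 0.059 with gaps merged, 0.176 with a limit of 1500 bp, 0.091 with a limit of 3000 bp and 0.069 to 0.074 with 1 replicate alone. Median GC content was 56.5% to 57.3% with 1 replicate alone. The other alternatives tried for these 5 results moved them by less than the spread between single replicates, or, for counts, by less than 1.5-fold, and no direction turned. A last alternative, chosen after seeing the data, kept the regions with both summits inside the shared bases: 5 of the 22 with heights over 1.5-fold apart remained, and the rank correlation within the very broad regions was 0.054. The cause of these shifts was not tested. With 1 group and no test there was nothing to pair. Read depth is unknown, and the 2 pools limit the precision of every height.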
